A study of Mus musculus with 2 samples.

Results

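The genes described here encode 10 enzymes that stand on the branches leaving glycolysis before the phosphoglycerate mutase step, and they were followed in single cells of gonadal white adipose tissue (gWAT). Phgdh, Psat1 and Psph make serine from 3-phosphoglycerate. Shmt2 and Mthfd2 act next, in mitochondrial one-carbon metabolism. G6pdx, Pgls and Pgd form the oxidative arm of the pentose phosphate pathway, and Taldo1 and Tkt form its non-oxidative arm. The 10 genes, of 28692 counted genes, are taken by their place in these pathways, and every one of them is in the count matrices of both libraries.

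Cells of the stromal vascular fraction (SVF), the non-adipocyte cells that collagenase frees from fat, came from male C57BL/6 mice at 13 weeks of age. There was 1 droplet library from Adipo-Pgam1 KO mice (Adipoq-Cre; floxed Pgam1) and 1 from littermate control mice. The labels call the control genotype littermate wildtype, and the study's methods describe control littermates as carrying both floxed Pgam1 alleles without Cre. How many mice stood behind each library is not given in the sources used here. Adipoq-Cre expresses the recombinase from the adiponectin promoter, which adipocytes use, and the SVF is prepared so as to leave out most mature adipocytes.

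Phosphoglycerate mutase turns 3-phosphoglycerate into 2-phosphoglycerate in glycolysis. 3-Phosphoglycerate is also the substrate of Phgdh, and glucose-6-phosphate, further upstream, is the substrate of G6pdx. Serine feeds glycine, nucleotide and glutathione synthesis, and the oxidative pentose phosphate arm makes NADPH, which macrophages use for the oxidative burst and fat-storing cells for lipid synthesis.

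The control library held 42859406 UMIs (unique molecular identifiers, each 1 captured RNA molecule) in 8522 barcodes and the KO library 13821581 UMIs in 2730 barcodes, of which 3616 and 937 cells were kept, with a median of 6888.5 and 7481 UMIs. The libraries shared 9 barcodes. Cells fell into 23 clusters, of which 18 were given 1 of 12 class names from marker genes, and 10 classes held at least 20 cells in each library. Levels are UMIs of a gene per 1000000 UMIs of the class (CPM), with exact 95% Poisson intervals. Ratios carry exact conditional binomial 95% intervals. The intervals describe counting error alone. As each genotype has a single library, there is no replicate check, differences between mice and between library preparations cannot be told apart from genotype, and no p-value is given.

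Pgam1, the deleted gene, was at 110 CPM (3339 UMIs) over all kept control cells and 117 CPM (1112 UMIs) over all kept KO cells, a log2 KO/control ratio of 0.09 (−0.01 to 0.18). The mix of classes differs between the libraries, and the class ratios had different signs, a difference that was not tested. The ratio was −0.05 (−0.23 to 0.14) in fibroblast-like, 0.55 (0.36 to 0.73) in macrophage and monocyte-like, 0.45 (0.17 to 0.73) in dendritic cell-like, −0.75 (−1.44 to −0.10) in T cell-like and −0.73 (−1.49 to −0.01) in epithelial-like cells. The adipocyte marker Adipoq had 23 UMIs over all control cells and 8 over all KO cells. Whether the allele was recombined in any of these cells was not tested. The study reported markedly lower Pgam1 in KO cells of a fibroblast cluster rich in adipocyte markers, which was not singled out here. Hbb-bs, a haemoglobin gene of red cells, had UMIs in 3319 of 3616 control and 864 of 937 KO cells. The share of such free RNA in the lowest levels given here was not tested.

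Phgdh, the first enzyme of serine synthesis (ENSMUSG00000053398, chr3:98313170-98339990, reverse strand, GRCm38), had its highest levels in lymphocytes. In the control library it was at 67.1 CPM (48.5 to 90.3) in B cell-like cells, 48.5 CPM (36.3 to 63.7) in NK cell-like cells and 38.2 CPM (28.0 to 51.0) in T cell-like cells. Mesothelial-like cells, the lining of the fat pad, were at 36.3 CPM and pericyte and smooth muscle-like cells, which wrap the vessels, at 32.6 CPM. No neighbours in this order differed beyond their counting intervals. Fibroblast-like cells followed at 21.6 CPM (18.8 to 24.8), below the vessel-wall cells beyond counting error. Myeloid cells had almost none, with 7 UMIs in 776 macrophage and monocyte-like cells (0.959 CPM, 0.386 to 1.98) and 11 UMIs in 266 dendritic cell-like cells (3.30 CPM). The level in macrophage and monocyte-like cells stood to that of fibroblast-like cells at a log2 ratio of −4.49 (−5.83 to −3.43). Epithelial-like cells had 0 Phgdh UMIs in 81 control cells, which allows up to 12.9 CPM, and 5 UMIs in 28 KO cells. In the KO library the contrast of the large classes pointed the same way, with 1 UMI in 125 macrophage and monocyte-like cells against 93 in 182 fibroblast-like cells.

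The vessel-wall class was not uniform for Phgdh. Its cluster led by Abcc9 and Kcnj8, channel genes of pericytes, was at 61.0 CPM (48 UMIs in 127 control cells), and its cluster led by Tagln and Colec11, with the smooth muscle gene Acta2 among its leading genes, was at 3.87 CPM (3 UMIs in 90 cells). The ratio was 15.7-fold, or 3.98 on the log2 scale (2.34 to 6.30). Psat1 pointed the same way between these clusters on few counts, at 11 and 2 UMIs, whereas Pgls and Taldo1 were lower in the Abcc9 and Kcnj8 cluster, by log2 values of −0.74 (−1.25 to −0.24) and −0.58 (−1.08 to −0.10).

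Psat1, the aminotransferase that follows Phgdh (ENSMUSG00000024640, chr19:15904678-15947337, reverse strand), had a different order. It was highest in fibroblast-like cells, at 80.5 CPM (74.9 to 86.4) from 774 UMIs in the control and 64.8 CPM (56.0 to 74.5) from 195 UMIs in the KO library. Epithelial-like cells came next at 41.9 CPM (12 UMIs), below the fibroblast-like cells by a log2 ratio of 0.94 (0.13 to 1.90), and blood endothelial-like cells were lowest at 6.28 CPM (5 UMIs). Macrophage and monocyte-like cells, almost without Phgdh, held 144 Psat1 UMIs, at 19.7 CPM (16.6 to 23.2). Across 11 control classes the levels of Phgdh and Psat1 had a Pearson correlation of 0.11 on the log2(CPM + 10) scale, and those of Pgls and Taldo1 one of 0.85. These points are classes of the same library, so the correlations are a description.

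Within fibroblast-like cells, Psat1 separated the clusters more than any other member. The cluster led by Inmt and Bmper had 104 CPM (704 UMIs in 562 control cells) and the cluster led by Cilp and Pi16, the latter a marker of adventitial progenitor fibroblasts, had 24.7 CPM (70 UMIs in 219 cells). The ratio was 4.20-fold (log2 2.07, 1.71 to 2.45). It was found again in the KO library, where the values were 87.7 and 18.2 CPM. Phgdh showed no such step, with 141 UMIs and 67 UMIs at 20.8 and 23.7 CPM. G6pdx shared the direction of Psat1, at 70.3 against 35.3 CPM (log2 0.99, 0.68 to 1.32), in the control library, but the KO values were closer, at 54.5 and 41.4 CPM.

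Psph, the phosphatase that releases serine (ENSMUSG00000029446, chr5:129765558-129787449, reverse strand), varied least among the 10 genes on the log2(CPM + 10) scale. That scale damps low levels such as those of Psph. The control levels of Psph ran from 25.2 CPM in NK cell-like cells to 7.26 CPM in macrophage and monocyte-like cells. No neighbours in the order differed beyond counting error. Its level in NK cell-like cells was above that in fibroblast-like cells by 1.06 log2 units (0.40 to 1.68). An unnamed cluster led by the killer receptor genes Klra1 and Klra7 had 53.6 CPM (25 UMIs in 99 control cells) and 55.9 CPM (16 UMIs in 42 KO cells).

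**Figure D1:**
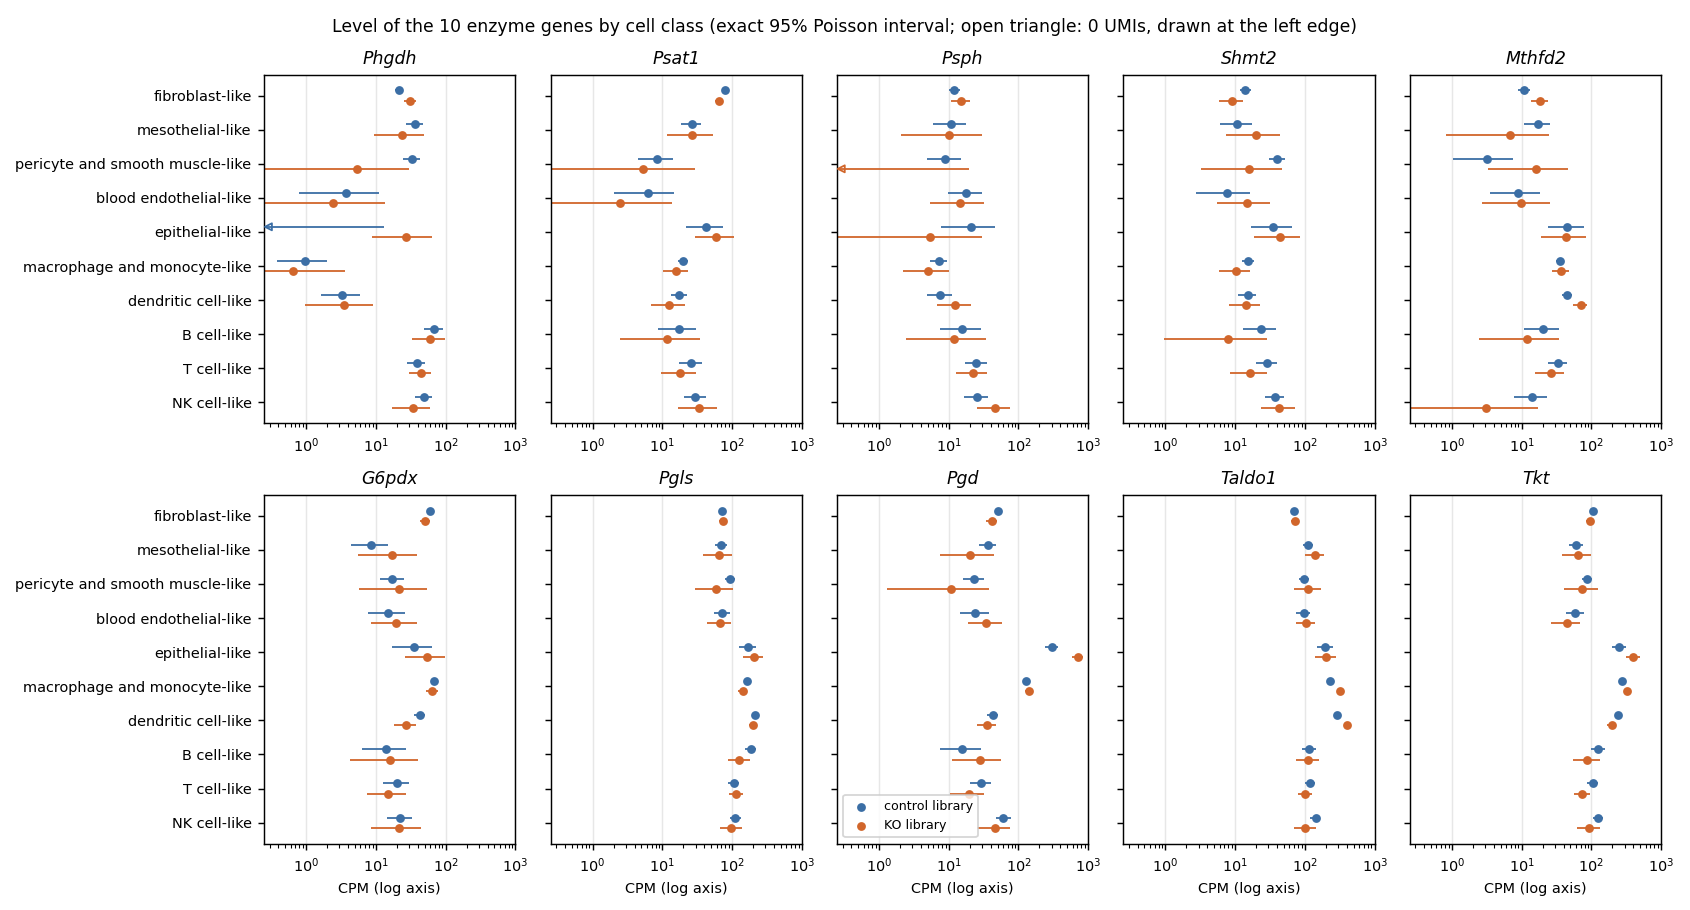
Level of each of the 10 enzyme genes (CPM, log axis) in 10 marker-named cell classes, with points for the control library (blue) and the KO library (orange) and bars for exact 95% Poisson intervals. In control cells Phgdh was at 67.1 CPM in B cell-like and 0.959 CPM in macrophage and monocyte-like cells, with 0 UMIs in epithelial-like cells. Taldo1 was highest in dendritic cell-like cells in both libraries, and Tkt in macrophage and monocyte-like control cells (271 CPM) and epithelial-like KO cells (395 CPM).

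Shmt2, which splits serine into glycine and a one-carbon unit in mitochondria (ENSMUSG00000025403, chr10:127517123-127522444, reverse strand), was at 40.3 CPM (31.0 to 51.6) in pericyte and smooth muscle-like cells and at 37.3 CPM in NK cell-like cells. It was at 14.0 CPM in fibroblast-like cells and lowest, at 7.54 CPM (6 UMIs), in blood endothelial-like cells. NK cell-like cells exceeded fibroblast-like cells by 1.41 log2 units (0.86 to 1.93) in the control and by 2.26 (1.21 to 3.24) in the KO library. The 3′ end of Shmt2 overlaps that of Ndufa4l2, a gene on the opposite strand (chr10:127514967-127517154). Ndufa4l2 was itself at 643 CPM in the control pericyte and smooth muscle-like cells, against 14.4 CPM in fibroblast-like cells. Its part in the Shmt2 level of that class was not tested.

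Mthfd2, the mitochondrial enzyme that oxidises the folate-bound one-carbon unit (ENSMUSG00000005667, chr6:83305691-83325908, reverse strand), had its highest well-counted levels in myeloid cells. Dendritic cell-like cells had 45.4 CPM (38.4 to 53.2) and macrophage and monocyte-like cells 35.5 CPM (31.3 to 40.1), against 10.8 CPM in fibroblast-like and 3.20 CPM (5 UMIs) in pericyte and smooth muscle-like cells. Epithelial-like cells had the same 45.4 CPM on only 13 UMIs. T cell-like cells, at 33.2 CPM (40 UMIs), did not differ from macrophage and monocyte-like cells beyond counting error (log2 0.09, −0.39 to 0.61, for the myeloid over the T cell level). The macrophage and monocyte-like level exceeded the fibroblast-like level 3.28-fold in the control (log2 1.71, 1.38 to 2.06) and 1.99-fold in the KO library. Inside the macrophage and monocyte-like class the range was wide. The cluster led by Lyz1 and Fcrls had 59.8 CPM, that led by Mmp12 and Chil3 had 36.3 CPM, and that led by Folr2 and Fcna, genes of resident macrophages, had 9.56 CPM (22 UMIs in 324 control cells).

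G6pdx, which opens the pentose phosphate pathway and makes the first NADPH (ENSMUSG00000031400, chrX:74409483-74429194, reverse strand), was high in 2 unrelated classes. It had 68.1 CPM (62.3 to 74.4) in macrophage and monocyte-like and 60.0 CPM (55.2 to 65.1) in fibroblast-like control cells. With another filter on cells this small difference took the opposite sign, at a log2 ratio of −0.15. Dendritic cell-like cells had 42.4 CPM. The other classes lay between 35.0 CPM in epithelial-like and 8.55 CPM (12 UMIs) in mesothelial-like cells. Ikbkg lies across G6pdx on the opposite strand, at 17.1 CPM in the fibroblast-like and 15.6 CPM in the dendritic cell-like cells.

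Pgls, the lactonase of the second step (ENSMUSG00000031807, chr8:71592176-71601092, forward strand), had 216 CPM (200 to 232) in dendritic cell-like, 187 CPM (155 to 224) in B cell-like and 166 CPM (157 to 176) in macrophage and monocyte-like control cells, and 69.8 CPM in mesothelial-like cells. It overlaps Fam129c on the same strand, a gene at 26.5 CPM in B cell-like cells and at 3.50 CPM or below in the other compared classes of the control library. The part of this overlap in the B cell level was not tested.

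Pgd, which makes the second NADPH (ENSMUSG00000028961, chr4:149149991-149166771, reverse strand), had the widest range among the members on the log2(CPM + 10) scale, which damps low levels. It had 301 CPM (240 to 371) in epithelial-like cells and 129 CPM (121 to 138) in macrophage and monocyte-like cells, against 51.4 CPM in fibroblast-like and 15.6 CPM (10 UMIs) in B cell-like cells. The epithelial-like class is the least certain of those named, since only 3 of its 5 markers (Epcam, Krt8 and Elf3) had UMIs in at least 10% of its cells, with Cdh1 at 9 UMIs and Cldn4 at 0 in the control cells, and its cells had a median of only 2125 UMIs. Krt8 was among its leading genes, and its other leading genes included Foxj1, a factor of ciliated cells, and Mmp7 and Lcn2.

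Taldo1 (transaldolase, ENSMUSG00000025503, chr7:141392199-141402968, forward strand) and Tkt (transketolase, ENSMUSG00000021957, chr14:30548359-30574720, forward strand) return pentoses to glycolysis. Taldo1 was highest in dendritic cell-like cells, at 287 CPM (269 to 306), then in macrophage and monocyte-like cells, at 227 CPM (216 to 238), and lowest of the compared classes in fibroblast-like cells, at 68.8 CPM (63.7 to 74.3). Tkt had 271 CPM (259 to 283) in macrophage and monocyte-like cells, 252 CPM in epithelial-like and 244 CPM (227 to 261) in dendritic cell-like cells. No neighbours among these differed beyond counting error, though the dendritic cell-like level was below the macrophage and monocyte-like level by a log2 ratio of −0.15 (−0.27 to −0.03). Every other class had 125 CPM of Tkt or less, down to 59.1 CPM in blood endothelial-like cells. Neutrophil-like cells were too few to compare, but their Taldo1 level stood out, with 29 UMIs in 7 control cells (1983 CPM) and 43 UMIs in 9 KO cells (1453 CPM).

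Both genes differed between the clusters of the myeloid classes. Tkt was at 388 CPM in the Mmp12 and Chil3 cluster, whose leading genes Plac8 and Cx3cr1 mark monocytes, at 301 CPM in the Lyz1 and Fcrls cluster and at 106 CPM in the Folr2 and Fcna cluster of the control library. The first exceeded the last 3.65-fold (log2 1.87, 1.66 to 2.07). Taldo1 had 359, 185 and 120 CPM in the same order. Among dendritic cell-like cells, Taldo1 reached 426 CPM (387 to 467) in the cluster led by Xcr1 and Irf8, marks of cross-presenting dendritic cells, against 223 CPM (204 to 243) in the Ccl22 and Ccl17 cluster. G6pdx and Mthfd2 went the other way there, at 20.8 against 52.4 CPM and at 28.4 against 53.2 CPM.

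**Figure D2:**
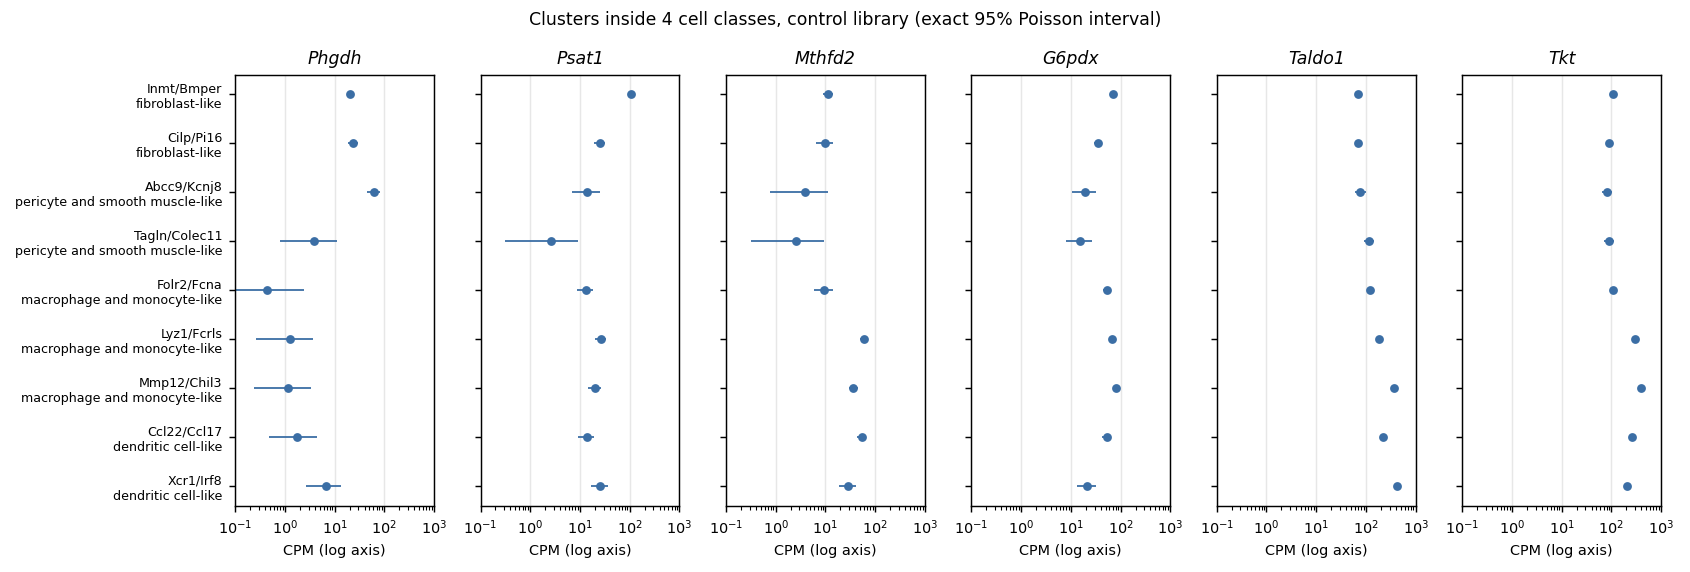
Control-library level (CPM, log axis, exact 95% Poisson interval) of 6 of the enzyme genes in the clusters that make up 4 cell classes, each cluster labelled by its leading pair of genes. Phgdh separated the vessel-wall clusters (61.0 against 3.87 CPM), Psat1 the fibroblast-like clusters (104 against 24.7 CPM) and Tkt the macrophage and monocyte-like clusters (388, 301 and 106 CPM).

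As a measure of how far the members vary, the range of log2(CPM + 10) over 11 control classes had a median of 2.05 for the members and of 1.72 for all 10640 genes with at least 200 control UMIs. Pgd had a range wider than 83.4% of these genes, and Psph one wider than 18.5%. The genes most like each member in profile over the 11 classes were Zer1 for Phgdh (r = 0.94), Arntl for Psat1 (r = 0.88), Itpr2 for Psph (r = 0.95), Nucks1 for Shmt2 (r = 0.91), Mkrn1 for Mthfd2 (r = 0.92), Qpct for G6pdx (r = 0.90), Scand1 for Pgls (r = 0.93), Rnf149 for Pgd (r = 0.91), Cct5 for Taldo1 (r = 0.93) and Gpr141 for Tkt (r = 0.91). The chaperonin gene Cct5 was also the second most like Mthfd2 (r = 0.90).

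Serine synthesis and one-carbon genes are known targets of the factor ATF4, and pentose phosphate genes of NRF2, so the RefSeq promoters of the members were searched for both motifs. Each window holds 250 bases before and 50 after the start site, on build GRCm38.p6, and all 10 members had at least 1, with 2 each for Psat1 and Pgd. The ATF4 motif TGATGNAA was read on both strands and was in the window of 0 of 10 members, and 4.51% of all 27025 genes with a promoter held it. The NRF2 motif TGACNNNGC, read likewise, was in those of 4 members, Phgdh, Psph, G6pdx and Pgd (for Pgd in the second of its 2 windows alone), and 14.0% of all genes held it. The windows of G6pdx and Phgdh are shown as the first enzymes of their pathways, 5′ to 3′ on the gene's strand, with the match in capitals, which reads on the opposite strand. That of G6pdx is chrX:74428831-74429130 and that of Phgdh chr3:98339920-98340219, both on the reverse strand.
G6pdx: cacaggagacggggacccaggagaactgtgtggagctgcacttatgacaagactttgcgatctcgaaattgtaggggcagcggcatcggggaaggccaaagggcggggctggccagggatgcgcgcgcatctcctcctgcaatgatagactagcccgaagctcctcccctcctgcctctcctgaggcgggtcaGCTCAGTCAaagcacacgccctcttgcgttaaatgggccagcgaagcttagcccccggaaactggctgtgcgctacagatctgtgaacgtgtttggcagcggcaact
Phgdh: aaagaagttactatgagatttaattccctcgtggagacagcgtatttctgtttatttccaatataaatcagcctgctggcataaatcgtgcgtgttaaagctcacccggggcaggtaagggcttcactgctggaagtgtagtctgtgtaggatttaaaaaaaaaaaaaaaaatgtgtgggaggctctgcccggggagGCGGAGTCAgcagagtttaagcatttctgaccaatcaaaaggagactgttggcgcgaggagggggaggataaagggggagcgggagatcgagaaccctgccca
The match begins 57 bases before the RefSeq start site in G6pdx and 53 bases before it in Phgdh. For G6pdx the whole window, and so the match, lies inside the GENCODE gene span given above. These are matches of letters and no evidence of binding.

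In proliferating cells, nucleotide synthesis draws on both pathways. Control cells with UMIs of at least 3 of the proliferation genes in the files were compared with the other cells of their class. Only macrophage and monocyte-like cells (28 proliferating, 748 other) and dendritic cell-like cells (29 and 237) had at least 20 such cells, and no class of the KO library did. The interval of the ratio excluded 1 for 4 of the 9 members with at least 50 UMIs in macrophage and monocyte-like cells, where it did for 29.0% of 8860 genes, and for 3 of 8 in dendritic cell-like cells, where it did for 19.5% of 6515 genes. Among macrophage and monocyte-like cells Psat1 was at 62.7 CPM (36 UMIs, in 15 of the 28 cells) in proliferating and 16.1 CPM (108 UMIs) in other cells, a log2 ratio of 1.96 (1.38 to 2.52). Mthfd2 was at 64.4 against 33.0 CPM (log2 0.96, 0.42 to 1.47), Pgls was higher by 0.63 log2 units (0.37 to 0.89), and Tkt by 0.41 (0.20 to 0.62). Pgam1 was higher too, by 0.93 (0.67 to 1.18). Phgdh, with 1 UMI in proliferating and 6 UMIs in other cells, was too low for a ratio. The intervals of G6pdx, Pgd, Taldo1, Psph and Shmt2 included 0. In dendritic cell-like cells Psat1 was again higher, at 36.0 against 14.6 CPM (log2 1.31, 0.38 to 2.17), Taldo1 was higher by 0.34 (0.08 to 0.59), and Pgd was lower by −1.02 (−2.12 to −0.10).

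The proliferating macrophage and monocyte-like cells were deeper, with a median of 21694.5 UMIs against 7797. They lay in other proportions in the clusters, with 14 in the Lyz1 and Fcrls cluster, 9 in the Mmp12 and Chil3 cluster and 5 in the Folr2 and Fcna cluster. Among dendritic cell-like cells, 13 of the 29 proliferating and 64 of the 237 other cells lay in the Xcr1 and Irf8 cluster, which was high in Taldo1. The part of the clusters in these ratios was not tested. With each cell thinned to 2000 UMIs no class had 20 proliferating cells.

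**Figure D3:**
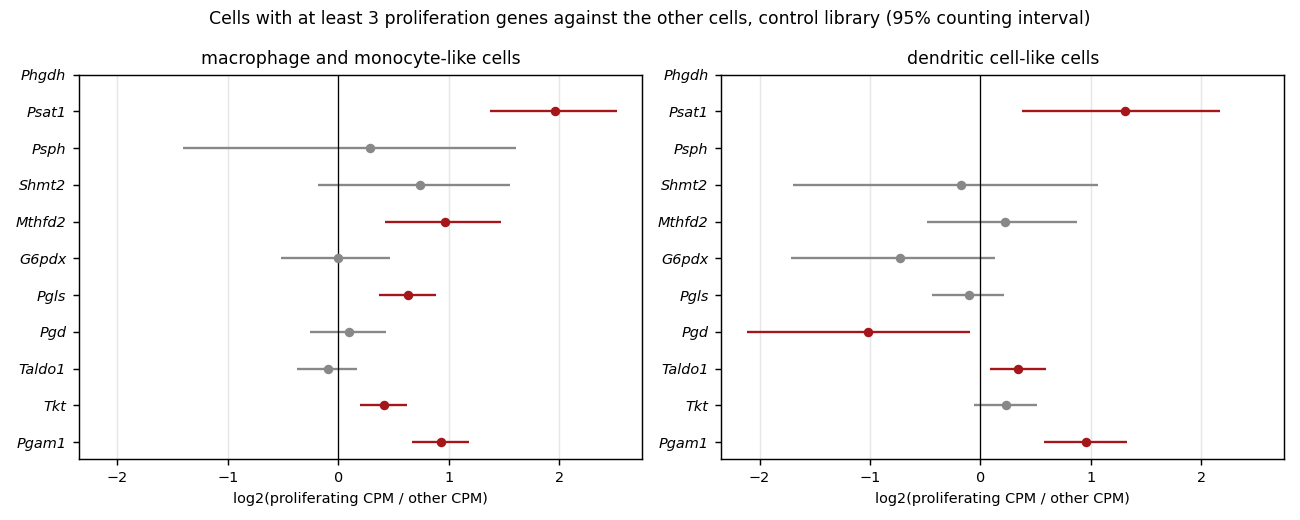
Ratio (log2) of CPM in proliferating over other control cells, with 95% counting intervals, for the members and Pgam1 in macrophage and monocyte-like cells (left) and dendritic cell-like cells (right). Intervals that exclude 0 are red, and genes with under 50 UMIs are blank. Psat1 lay at 1.96 and 1.31.

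The KO and control libraries were then compared within each class, over genes with at least 50 UMIs in both libraries together. A gene was called by size where the libraries differed at least 2-fold, and by counting error where the interval of the ratio excluded 1. The second rule depends on depth, so its share of all genes is given beside each count. In fibroblast-like cells all 10 members were measured. 0 of them differed 2-fold, where 2.79% of 10543 genes did, and 5 had an interval that excluded 1, where 29.0% of genes did. The median log2 KO/control ratio was −0.05 for the members and −0.10 for all genes.

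Within that class the serine and one-carbon enzymes were not aligned. Phgdh was higher in the KO library, at 30.9 CPM (93 UMIs) against 21.6 CPM (208 UMIs), a log2 ratio of 0.51 (0.15 to 0.87), and Psat1 was lower, at 64.8 against 80.5 CPM (log2 −0.31, −0.55 to −0.08). In the Inmt and Bmper cluster the Phgdh ratio was 0.76 (0.33 to 1.18) and in the Cilp and Pi16 cluster −0.09 (−0.86 to 0.62). Shmt2 was lower (log2 −0.65, −1.30 to −0.04), with 135 UMIs and 27 UMIs. Mthfd2 was higher, at 18.3 CPM (55 UMIs) against 10.8 CPM (104 UMIs), with a log2 ratio of 0.76 (0.26 to 1.24). Its values were 29.3 CPM (29 UMIs in 16 of 61 KO cells) and 9.88 CPM (28 UMIs in 20 of 219 control cells) in the Cilp and Pi16 cluster, a log2 ratio of 1.57 (0.77 to 2.37). In the Inmt and Bmper cluster the ratio was 0.20 (−0.50 to 0.86), and the difference between the clusters was not tested for either gene.

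In the pentose phosphate arms of fibroblast-like cells, Pgd was lower in the KO library (41.5 against 51.4 CPM, log2 −0.31, −0.60 to −0.02). G6pdx had a log2 ratio of −0.26 (−0.53 to 0.00), Pgls one of 0.04 (−0.18 to 0.26), Taldo1 one of 0.09 (−0.14 to 0.31) and Tkt one of −0.14 (−0.33 to 0.06). The intervals of the last 3 stayed within 0.33 log2 units either way. They hold counting error alone, so with 1 library per genotype they set no bound on a difference between genotypes.

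In macrophage and monocyte-like cells 9 members were measured, all but Phgdh. 0 differed 2-fold, where 6.97% of 9176 genes did, and 3 had an interval that excluded 1, where 27.5% of genes did. Taldo1 was at 321 CPM (503 UMIs) in the KO and 227 CPM (1658 UMIs) in the control library (log2 0.50, 0.35 to 0.64), Tkt at 330 and 271 CPM (log2 0.28, 0.14 to 0.42), and Pgls at 141 and 166 CPM (log2 −0.23, −0.45 to −0.03). The mix of clusters differed between the libraries. The Folr2 and Fcna cluster, low in Taldo1 and Tkt, held 324 of 776 control cells and 18 of 125 KO cells. With the control clusters weighted to the KO mix, the Tkt ratio was 0.03 and the Taldo1 ratio 0.25. Within the clusters Tkt had log2 ratios of −0.19 (Mmp12 and Chil3), −0.24 (Folr2 and Fcna) and 0.39 (Lyz1 and Fcrls, 0.17 to 0.61). Under a coarser clustering the signs of Tkt, Taldo1 and Pgls turned, to −0.56, −0.18 and 0.27. The class was then made of other cells, with 365 control and 33 KO cells in place of 776 and 125. Tkt and Pgls also turned under a stricter cell filter, to −0.10 and 0.30.

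In dendritic cell-like cells 8 members were measured, 0 of them past 2-fold (4.04% of 7356 genes) and 4 with an interval that excluded 1 (21.2% of genes). Mthfd2 was higher in the KO library, at 70.0 CPM (79 UMIs) against 45.4 CPM (151 UMIs), with a log2 ratio of 0.63 (0.21 to 1.03). It was higher in both clusters, by 0.57 (0.04 to 1.08) in the Ccl22 and Ccl17 cluster and by 1.11 (0.36 to 1.86) in the Xcr1 and Irf8 cluster. Taldo1 was higher too (403 against 287 CPM, log2 0.49, 0.32 to 0.65). G6pdx was lower (26.6 against 42.4 CPM, log2 −0.67, −1.29 to −0.10), as was Tkt (195 against 244 CPM, log2 −0.32, −0.54 to −0.11). The mix of clusters differed here too. The Xcr1 and Irf8 cluster, high in Taldo1 and low in G6pdx, held 77 of 266 control cells and 29 of 67 KO cells. The Taldo1, G6pdx and Tkt ratios given are not adjusted for this mix. Of 13 proliferation genes measured in this class, 8 were higher and 1 lower in the KO library by the interval rule (21.2% of all genes either way). The part of proliferating cells in these ratios was not tested. The Tkt ratio was −0.04 under a coarser clustering, where the class held 413 control and 97 KO cells.

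Among the named lymphocyte classes only Tkt in T cell-like cells had an interval that excluded 1, with 54 KO and 127 control UMIs at 74.2 and 106 CPM (log2 −0.51, −0.995 to −0.04). It was 1 of 5 members measured there (17.6% of 5161 genes), and 0 differed 2-fold (3.10%). In B cell-like cells 4 members were measured and 0 passed either rule (5.11% and 20.6% of 2545 genes). In NK cell-like cells 6 were measured and 0 passed either rule (3.88% and 13.1% of 4432 genes). Phgdh, which had its highest control levels in these classes, had log2 ratios of −0.18 (−1.14 to 0.70) in B cell-like, 0.20 (−0.50 to 0.88) in T cell-like and −0.53 (−1.61 to 0.43) in NK cell-like cells.

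In epithelial-like cells 4 members were measured, of which 1 differed 2-fold (11.0% of 1479 genes) and 2 had an interval that excluded 1 (29.4%). Pgd was at 703 CPM (130 UMIs in 28 KO cells) and 301 CPM (86 UMIs in 81 control cells), a log2 ratio of 1.23 (0.82 to 1.64), and Tkt at 395 and 252 CPM (log2 0.65, 0.16 to 1.14). A single KO cell held 74 of the 130 Pgd UMIs and 37 of the 73 Tkt UMIs. Without the highest cell of each library the log2 ratios were 1.16 (0.63 to 1.68) for Pgd and 0.67 (0.04 to 1.28) for Tkt.

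In pericyte and smooth muscle-like cells 5 members were measured, of which 2 differed 2-fold (14.5% of 5679 genes) and 1 had an interval that excluded 1 (17.3%). Phgdh had 1 UMI in 21 KO cells and 51 UMIs in 217 control cells (5.31 and 32.6 CPM, a log2 ratio of −2.62, −7.95 to −0.08). Only 7 of the 21 KO cells, but 127 of the 217 control cells, were in the Phgdh-rich Abcc9 and Kcnj8 cluster. With the control clusters weighted to the KO mix the log2 ratio was −1.44. Without doublet removal it was −1.02 (−2.69 to 0.28), in a class that then held 347 control and 42 KO cells. With TMM scaling of the class as reported, the interval also included 0 (−7.84 to 0.03). Shmt2 had 3 KO UMIs and 63 control UMIs (log2 −1.34, −3.66 to 0.27). In mesothelial-like cells 5 members were measured and 0 passed either rule (5.45% and 13.4% of 5323 genes). In blood endothelial-like cells 3 were measured and 0 passed either rule (4.99% and 19.8% of 4227 genes).

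**Figure D4:**
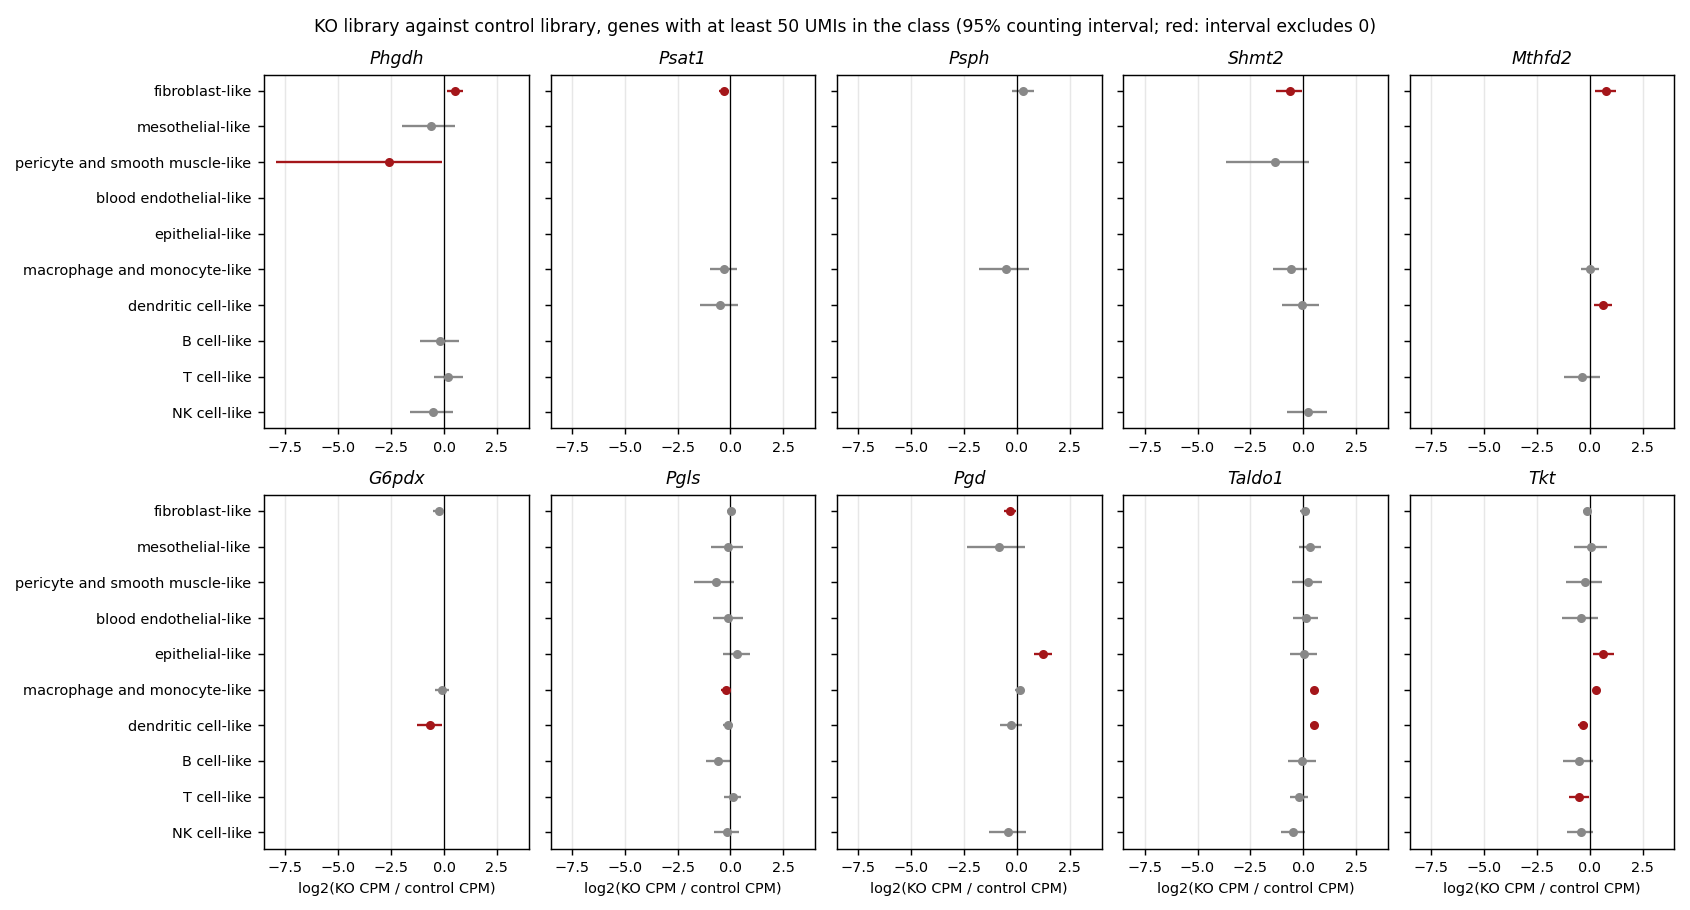
Ratio (log2) of KO over control CPM for each member and class with at least 50 UMIs, with exact 95% counting intervals, red where the interval excludes 0. In fibroblast-like cells Mthfd2 lay at 0.76 and Shmt2 at −0.65, and the widest bar, Phgdh in pericyte and smooth muscle-like cells, rests on 1 KO UMI.

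The rest of the pathways was read from lists of related genes, counted where the interval of the ratio excluded 1. Of all genes, 8.80% were higher and 20.2% lower by this rule in KO fibroblast-like cells, and 10.7% were higher and 16.8% lower in KO macrophage and monocyte-like cells. Each list's count is to be read against these shares. Of 27 other serine, glycine and folate genes, 19 were measured in fibroblast-like cells, with 0 higher and 3 lower (near the 20.2% of all genes) and a median log2 ratio of −0.17 (all genes −0.10). Aldh1l1, a cytosolic folate enzyme, was at 2.99 CPM in the KO and 6.24 CPM in the control library (log2 −1.06, −2.26 to −0.04), and the glutamine and serine carrier Slc1a5 at 315 and 380 CPM (log2 −0.27). Among macrophage and monocyte-like values 16 were measured and 0 had an interval that excluded 1. Of 12 other pentose phosphate genes, 8 were measured in fibroblast-like cells, with 4 lower and 0 higher, among them the sedoheptulose kinase Shpk (log2 −0.82, −1.68 to −0.04) and Prps1, which makes the ribose donor of nucleotides (log2 −0.59, −1.06 to −0.15). The macrophage and monocyte-like cells had 2 of 8 lower, the epimerase Rpe (log2 −0.60) and H6pd (log2 −0.84), which opens the same pathway in the endoplasmic reticulum.

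Of 8 other genes of NADPH supply, the isocitrate dehydrogenase Idh1 (log2 −0.43, −0.61 to −0.26) and the NAD kinase Nadk (log2 −0.40) were lower in KO fibroblast-like cells. Idh2 was higher there (log2 0.30, 0.00 to 0.59). In macrophage and monocyte-like cells 4 of 6 measured were lower, with Idh2 at −0.85 (−1.25 to −0.47) and Nnt at −0.70. Among 16 glycolysis genes around the branch points, 14 were measured in each class. In macrophage and monocyte-like cells 7 were higher and 1 lower beyond counting error, with the enolase Eno1 at 309 against 152 CPM (log2 1.02, 0.87 to 1.18) and the phosphofructokinase Pfkp at a log2 ratio of 0.72. In fibroblast-like cells 5 were higher and 2 lower, with the hexokinase Hk2 at 18.6 against 6.66 CPM (log2 1.48, 0.94 to 2.02), Bpgm at −1.08 and Pfkp at −0.37. Pgk1 was at 0.92 (0.16 to 1.65), on only 26 KO and 44 control UMIs.

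The ATF4 and amino acid response list held 6 higher and 4 lower genes of 15 measured in fibroblast-like cells, among them the asparagine synthetase Asns (log2 0.75, 0.08 to 1.39), Cebpb (0.82), the glycine carrier Slc6a9 (−0.53) and Trib3 (−1.54, −2.91 to −0.42). In macrophage and monocyte-like cells 4 of 13 were higher and 0 lower, with the cystine carrier Slc7a11 at 44.0 against 11.5 CPM (log2 1.93, 1.45 to 2.41) and Cebpb at 1.18. Of the NRF2 response genes, 3 of 14 were higher and 3 lower in fibroblast-like cells, with Gsta3 at 0.51, Ftl1 at 0.33, Gclc at −0.72 and Srxn1 at −0.49, and 6 of 12 were higher and 3 lower in macrophage and monocyte-like cells, with Srxn1 at 1.42, Hmox1 at 0.75, Gstm1 at −0.47 and Prdx1 at −0.43. Of the proliferation genes, 13 were measured in macrophage and monocyte-like cells, of which 7 were higher and 0 lower, with Cdk1 at 1.94 (1.23 to 2.64) and Mki67 at 1.06. In fibroblast-like cells only Hmgb2 was measured, at −0.40. The differing cluster mix described above moved with all macrophage and monocyte-like values, and its part in these lists was not tested.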

How the data were processed

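Single-cell RNA-seq (10x Genomics 3′ v3) was done on gWAT SVF cells, with 1 library per genotype. Per the labels and the submitters' processing notes, the authors made the deposited raw UMI counts per gene and barcode with Cell Ranger 3.0.1 on mm10, and named Seurat 3.1.5 and R 4.0.1. No normalization had been applied. Since 3′ counting reads the end of a transcript, levels were compared for the same gene between classes, not between genes.

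A barcode was kept when it had 500 or more detected genes and no more than 10% of its UMIs from mitochondrial genes. The barcodes with the highest Scrublet-type doublet score, 0.8% per 1000 barcodes, were removed. Cells were clustered with scanpy 1.11.5 and leidenalg 0.10.2 (2000 variable genes, 30 principal components, resolution 0.5) without the 120 members, listed genes and proliferation genes, and clusters were named from 129 marker genes of 19 cell types. A name needed a score at least 0.5 above the next class, and macrophages and monocytes were merged. Both choices were made after the data were seen, and the names are rebuilt and need not match the study's. UMIs were summed per class and library and ratios given exact binomial intervals (scipy 1.17.1). The scripts were tested on simulated data. TMM factors came from edgeR 4.0.16.

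The members and the gene lists were chosen with earlier results of these data known. Besides the members and Pgam1, named genes are those with the largest differences in each list (at most 2 up and 2 down per class, interval excluding 0, at least 50 UMIs), the genes most like a member in profile, and the leading genes of clusters. The Ndufa4l2, Ikbkg, Fam129c, Hbb-bs and Adipoq values were added after the data were seen. There were 15 planned and 2 added alternatives. Gene positions are from GENCODE on GRCm38.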

Additional observations from a re-analysis of the deposited data

Results flagged for a closer look

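For 3 members the KO/control ratios pointed in opposite directions in different cell classes, each with a counting interval that excludes 0. Whether the ratios differ between the classes was not tested, since each class has 1 library per genotype.

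Phgdh had a log2 ratio of 0.51 in fibroblast-like cells and of −2.62 in pericyte and smooth muscle-like cells, the latter on 1 KO UMI. Pgd had a log2 ratio of 1.23 in epithelial-like cells, where 1 KO cell held 74 of 130 UMIs, and of −0.31 in fibroblast-like cells. Tkt had log2 ratios of 0.65 in epithelial-like and 0.28 in macrophage and monocyte-like cells, and of −0.51 in T cell-like and −0.32 in dendritic cell-like cells. The macrophage and monocyte-like value was 0.03 with the control clusters weighted to the KO mix.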

How the results depend on the processing

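No paired analysis was possible because each genotype has 1 library. Counts of genes at least 2-fold apart and ratios of the 4 enzyme arms are given here as log2 KO/control unless the macrophage and monocyte-like over fibroblast-like level of the control library is named.

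With a filter of 1000 genes and 5% mitochondrial UMIs, macrophage and monocyte-like cells (184 control, 22 KO) had one-carbon −0.65 (−0.13 as reported, and so for other values in parentheses), oxidative 0.25 (−0.06) and non-oxidative 0.031 (0.38) ratios and 394 genes past 2-fold (640). Their levels over fibroblast-like cells were then −2.60 for Psat1 (−2.03), 1.16 for Mthfd2 (1.71), −0.15 for G6pdx (0.18), 0.60 for Pgls (1.19), 0.69 for Pgd (1.33), 1.498 for Taldo1 (1.72) and 0.80 for Tkt (1.38). With each cell named by its own markers these levels were 1.22 for Mthfd2, 1.17 for Pgd, 1.57 for Taldo1 and 1.24 for Tkt. With cells weighted equally they were −2.43 for Psat1, 1.06 for Pgls and 1.22 for Tkt, and without proliferating cells −2.33 for Psat1.

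Without doublet removal, 294 genes passed 2-fold in epithelial-like cells (162), the macrophage and monocyte-like non-oxidative ratio was 0.28 and the pericyte and smooth muscle-like serine ratio −0.028 (−2.23). The pericyte and smooth muscle-like class then held 347 control and 42 KO cells, in place of 217 and 21. At resolution 0.3 macrophage and monocyte-like cells (365 control, 33 KO) had a one-carbon ratio of −0.86, and the non-oxidative one reversed to −0.35. The non-oxidative ratio was 0.49 with median-of-ratios scaling and 0.13 with control clusters weighted to the KO mix. Equal weights gave epithelial-like serine −0.51 (0.55) and one-carbon −1.12 (0.11), macrophage and monocyte-like oxidative 0.16 and pericyte and smooth muscle-like oxidative −1.59 (−0.58).

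With cells thinned to 2000 UMIs, the ratios were serine 0.58 in B cell-like (−0.27) and −1.70 in dendritic cell-like cells (0.01), oxidative −0.72 in NK cell-like (−0.23), −0.50 in dendritic cell-like (−0.21) and 0.41 in mesothelial-like cells (−0.18), one-carbon −1.15 in epithelial-like and 0.35 in macrophage and monocyte-like cells, and non-oxidative 1.12 in mesothelial-like (0.25) and 0.76 in pericyte and smooth muscle-like cells (0.02). Genes past 2-fold were then 57 in B cell-like (130), 55 in T cell-like (160), 83 in blood endothelial-like (211), 78 in dendritic cell-like (297), 18 in epithelial-like (162), 54 in mesothelial-like (290) and 134 in pericyte and smooth muscle-like cells (822), with fewer genes reaching 50 UMIs. A minimum of 20 UMIs tests more, noisier genes and gave 590 in B, 665 in NK (172) and 591 in T cell-like, 745 in blood endothelial-like, 750 in dendritic cell-like, 686 in epithelial-like, 624 in fibroblast-like (294), 1008 in macrophage and monocyte-like and 723 in mesothelial-like cells. Thinning also left out every cell under 2000 UMIs, such as 37 of 81 control and 13 of 28 KO epithelial-like cells. In pericyte and smooth muscle-like cells it left out 16 of 217 control and 8 of 21 KO cells. The cause of the other differences was not tested.

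In macrophage and monocyte-like cells the KO/control ratio reversed for Tkt (0.28) to −0.10 with the stricter filter and −0.56 at resolution 0.3, for Taldo1 (0.50) to −0.18 at resolution 0.3, and for Pgls (−0.23) to 0.30 with the stricter filter, 0.27 at resolution 0.3 and 0.11 with equal weights. The G6pdx level contrast above also reversed.

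In fibroblast-like cells the ratio ran over the alternatives from 0.41 to 0.80 for Phgdh, from −0.51 to −0.21 for Psat1, from 0.41 to 1.10 for Mthfd2, from −0.77 to −0.27 for Shmt2 and from −0.79 to −0.20 for Pgd. TMM scaling moved ratios by at most 0.12, and median-of-ratios scaling by at most 0.13. Not every class could be rebuilt: epithelial-like and blood endothelial-like cells gave no value with the looser cell filter, B cell-like, T cell-like, epithelial-like, mesothelial-like and pericyte and smooth muscle-like cells with the stricter one, and dendritic cell-like, epithelial-like, mesothelial-like and pericyte and smooth muscle-like cells when named cell by cell. Depth limits the small classes, where 3 to 6 members reached 50 UMIs.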
